A study of Mus musculus with 16 samples.

Results

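The transcripts of sarcoplasmic reticulum calcium handling were followed in the apex of the mouse heart through 10 genes: the calcium pump Atp2a2 and its inhibitors Pln and Sln, the release channel Ryr2 with Trdn and Jph2, the luminal calcium-binding proteins Casq1, Casq2 and Hrc, and the exchanger Slc8a1. The members were taken by gene symbol, with 1 row each among the 55487 rows of the count table, in all 16 libraries. The study sequenced poly(A) RNA from male mice with or without Cardinal (Gm12295), a cardiac long noncoding RNA, 4 weeks after transverse aortic constriction (TAC), which loads the left ventricle with pressure, or after a sham operation. The 4 groups, each with 4 libraries, are named by genotype and operation. Ctrl mice are those labelled control or WT, and KO mice are those labelled as Cardinal knockouts. The ages of the animals and the construction of the knockout allele were not given in the sources used here.

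Library totals ranged from 53169437 to 79404714 counts, and mitochondrially encoded genes took 21.9% to 28.8% of them. Cardinal stood at 2.69 to 8.02 CPM (the count relative to the TMM-scaled library total) in the 8 Ctrl libraries and at 0.276 to 0.553 CPM in 7 of the 8 KO libraries. The library labelled KO TAC 4 held 4.55 CPM, against its label. Results on KO TAC libraries are therefore also given without it where that changes a call. Ventricular cardiomyocyte markers were abundant in every library, with a summed level of 42628 to 59382 CPM over 8 genes. The 7 atrial markers summed to 63.8 to 135 CPM, mostly from Kcnj3 (31.2 to 100.1 CPM) and Kcna5 (18.8 to 34.5 CPM), while Myl7 did not exceed 0.822 CPM and Bmp10 0.169 CPM.

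In each heartbeat calcium entering through the cell surface opens the ryanodine receptor, calcium leaves the sarcoplasmic reticulum, and relaxation follows as the SERCA pump returns it to the store. Phospholamban and sarcolipin slow the pump, calsequestrin and the histidine-rich calcium-binding protein act in the lumen, and triadin and junctophilin belong to the junction where the 2 membranes meet. The sodium-calcium exchanger removes calcium across the cell surface, and a low ratio of pump to phospholamban or to exchanger is a long-studied feature of the failing heart.

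The promoters of Pln and Hrc, which were lower after TAC in both genotypes, and of Casq1 and Casq2, which were higher after TAC in Ctrl mice, are shown for comparison of their letters. RefSeq promoters on GRCm38.p6 matched 7 of the 10 members. Each line gives the 250 bases before the RefSeq start, 5′ to 3′. For Hrc and Casq1 the first bases after that start were not found in a transcript of GENCODE, the annotation used for positions. Capitals mark matches on either strand to the E-box (CANNTG), the M-CAT element (CATTCC), the TATA box (TATAAA) or the consensus of MEF2, a muscle transcription factor. No 2 of these matches overlapped. The windows are chr10:53337436-53337685 on the plus strand (Pln), chr7:45335019-45335268 on the plus strand (Hrc), chr3:102086165-102086414 on the plus strand (Casq2) and chr1:172219896-172220145 on the minus strand (Casq1).
Pln: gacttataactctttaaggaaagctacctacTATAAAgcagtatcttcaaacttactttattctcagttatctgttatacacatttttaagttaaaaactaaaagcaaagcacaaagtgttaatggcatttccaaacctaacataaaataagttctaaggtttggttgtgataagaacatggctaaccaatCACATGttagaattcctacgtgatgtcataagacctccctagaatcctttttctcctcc
Hrc: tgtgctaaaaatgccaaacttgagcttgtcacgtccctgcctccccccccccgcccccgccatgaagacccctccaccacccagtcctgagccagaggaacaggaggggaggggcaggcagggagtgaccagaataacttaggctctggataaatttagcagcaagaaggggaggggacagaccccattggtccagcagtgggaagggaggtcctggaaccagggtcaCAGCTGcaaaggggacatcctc
Casq2: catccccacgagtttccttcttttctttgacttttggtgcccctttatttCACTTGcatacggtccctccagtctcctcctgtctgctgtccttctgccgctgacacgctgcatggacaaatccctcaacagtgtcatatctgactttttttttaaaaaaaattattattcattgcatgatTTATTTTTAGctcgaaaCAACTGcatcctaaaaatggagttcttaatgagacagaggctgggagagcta
Casq1: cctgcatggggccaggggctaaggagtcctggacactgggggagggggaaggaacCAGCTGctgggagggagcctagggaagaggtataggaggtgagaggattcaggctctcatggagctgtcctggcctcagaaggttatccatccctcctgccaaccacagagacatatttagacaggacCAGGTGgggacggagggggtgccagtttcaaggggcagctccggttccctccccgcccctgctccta

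An E-box was present in all 4 windows, with 1 match each in Pln and Hrc and 2 each in Casq1 and Casq2. Among all 32851 RefSeq promoters, 66.2% held at least 1 E-box in the same window. The MEF2 match of Casq2, which begins 69 bases before the start, had no counterpart in the other members with a promoter, and 2.92% of all promoters held one. The Pln window held 1 TATA box 219 bases before the start, against 12.4% of all promoters with any. No M-CAT element was found in the 4 windows, and 12.6% of all promoters held one. The GC content was 32.8% in the Pln window, 41.6% in Casq2, 59.6% in Hrc and 61.6% in Casq1.

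Levels were compared between genes as RPKM, which divides CPM by annotated exon length. In Ctrl sham hearts Atp2a2 came first at 2478 ± 158 RPKM (mean ± SD, n = 4) and Pln second at 1897, followed by Hrc at 368, Casq2 at 275, Jph2 at 117, Ryr2 at 49.3, Trdn at 34, Slc8a1 at 17.4 and Casq1 at 2.67 RPKM. No 2 neighbours in this order overlapped between libraries. KO sham hearts had the same order without overlap. Atp2a2 alone took 0.866% to 1.48% of all counts of a library. After TAC the order changed at 1 place. Hrc was above Casq2 in 8 of 8 sham libraries, and Casq2 was above Hrc in 8 of 8 TAC libraries. The ratio of Casq2 to Hrc RPKM was 0.749 ± 0.0342 in Ctrl sham, 0.788 ± 0.0618 in KO sham, 1.44 ± 0.161 in Ctrl TAC and 1.89 ± 0.135 in KO TAC. This exchange was singled out after the values were seen and was not tested. In KO TAC hearts Ryr2 and Trdn were the only neighbours whose ranges overlapped.

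TAC altered most of these transcripts in both genotypes, and in both directions. In Ctrl mice 6 of the 9 members tested passed an adjusted p of 0.05, of which 4 fell (Atp2a2, Pln, Trdn and Hrc) and 2 rose (Casq1 and Casq2). Of all 18275 genes tested, 20.0% passed, 10.4% higher and 9.60% lower, and of the 3936 genes averaging 5 or more in log2 CPM 33.6% passed. In KO mice 6 of 9 also passed, where 5 fell (Atp2a2, Pln, Ryr2, Trdn and Hrc) and 1 rose (Casq2), against 34.3% of all genes (17.8% higher, 16.5% lower) and 49.4% of the abundant ones. The sham and TAC libraries did not overlap for 6 of 9 members in each genotype, which was so for 20.5% of all genes in Ctrl and 34.6% in KO mice. The median log2 fold change of the members was -0.23 in Ctrl and -0.22 in KO mice, where the median over all genes was 0.00 in each. Sln lay below the filter on low counts and was not tested. In bulk tissue fewer cells of a type and less RNA per cell cannot be told apart.

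**Figure D1:**
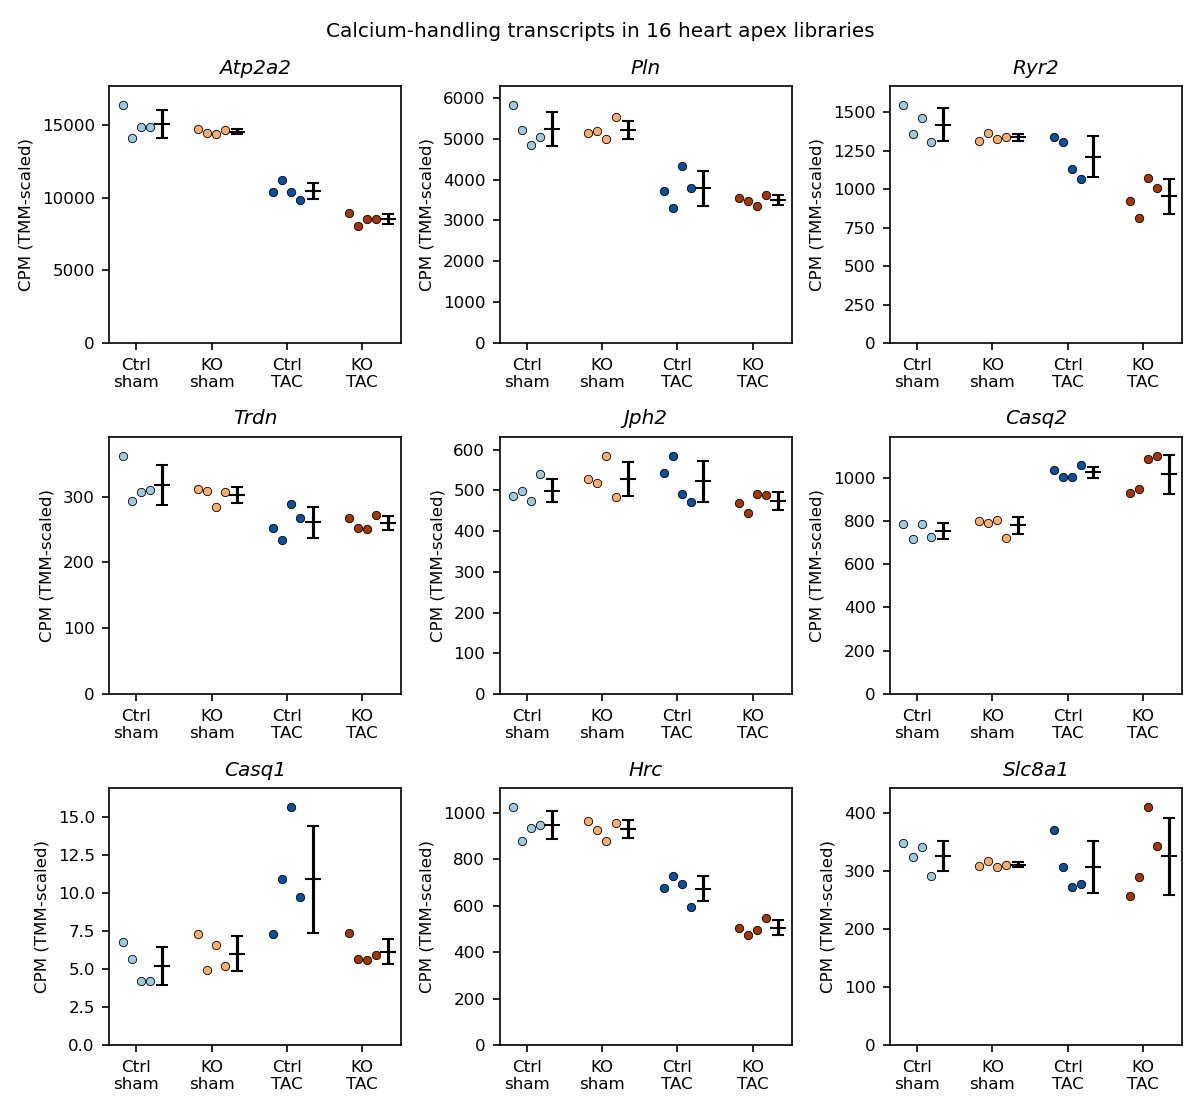
Level of each tested member in CPM scaled by TMM (vertical axes, from 0) in the 4 libraries of each group (points), with the group mean and SD beside them. Atp2a2, Pln and Hrc in all TAC libraries sit below all sham libraries, Casq2 sits above them, and Casq1 stands highest in Ctrl TAC at 7.29 to 15.7 CPM.

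Atp2a2, which encodes the SERCA2 pump (chromosome 5, 122453513 to 122502225, minus strand), measured 16392, 14101, 14871 and 14904 CPM after sham surgery and 10398, 11216, 10415 and 9857 CPM after TAC in Ctrl mice. In KO mice it measured 14758, 14448, 14364 and 14688 CPM after sham surgery and 8969, 8089, 8558 and 8536 CPM after TAC. Every TAC library lay below every sham library, and every KO TAC library lay below every Ctrl TAC library. By edgeR's quasi-likelihood test with Benjamini-Hochberg adjustment, Atp2a2 fell by 0.52 on the log2 scale with TAC in Ctrl mice (SE 0.06, adjusted p = 3.56e-06) and by 0.77 in KO mice (SE 0.06, adjusted p = 2.08e-08). It was lower in KO than in Ctrl mice after TAC (log2 fold change -0.29, SE 0.06, edgeR adjusted p = 0.0142) and not in sham mice (-0.05, 95% interval -0.17 to 0.07).

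Pln encodes phospholamban, the inhibitor of that pump in the ventricle (chromosome 10, 53337667 to 53345987, plus strand). Its level was 5822, 5215, 4845 and 5052 CPM (Ctrl) and 5143, 5187, 4994 and 5518 CPM (KO) after sham surgery, and 3720, 3299, 4338 and 3802 CPM (Ctrl) and 3540, 3483, 3348 and 3615 CPM (KO) after TAC. No TAC library reached the lowest sham library, while the KO TAC values lay inside the range of Ctrl TAC. In edgeR Pln fell by 0.47 with TAC in Ctrl mice (log2, SE 0.07, adjusted p = 0.00017) and by 0.58 in KO mice (SE 0.07, adjusted p = 7.65e-06). The difference between KO and Ctrl mice after TAC was -0.12 (95% interval -0.27 to 0.04, edgeR adjusted p = 0.417). Of its exon bases, 59.6% are also annotated on the opposite strand as Gm47644, whose counts stayed at or under 1.26% of those of Pln. Because the use of strand in counting was not given, this does not show how reads in the shared bases were assigned. Any effect on the RPKM of Pln was not tested.

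Sln, the sarcolipin gene, whose product inhibits the pump in atria and skeletal muscle, was close to absent. Its counts were 0 in 12 of 16 libraries, and the others were 4 in Ctrl sham 1, 3 each in KO sham 1 and KO sham 3, and 9 in Ctrl TAC 2. A count of 0 allows a level of up to 0.0362 to 0.0587 CPM per library, where 3 counts set the limit, for counting error only. The 9 counts correspond to 0.134 CPM with an exact Poisson 95% interval of 0.0615 to 0.255. The summed atrial markers of Ctrl TAC 2 were 97.2 CPM, inside the range of the other libraries, but that sum came mostly from Kcnj3 and Kcna5. The highest Myl7 (0.822 CPM) and Myl4 (2.32 CPM) values of the 16 libraries were in Ctrl TAC 2, whereas Bmp10 was highest in Ctrl sham 3 (0.169 CPM). The part of atrial cells in the Sln counts was not tested. No difference in Sln between groups was detectable at this depth.

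Of Ryr2, Trdn and Jph2, the members of the release unit, Ryr2 had the largest change in KO mice. Ryr2, the cardiac ryanodine receptor, measured 1549, 1358, 1462 and 1309 CPM (Ctrl) and 1313, 1364, 1330 and 1343 CPM (KO) after sham surgery, and 1341, 1307, 1132 and 1068 CPM (Ctrl) and 926, 811, 1076 and 1007 CPM (KO) after TAC. The Ctrl TAC range reached into the Ctrl sham range, whereas all KO TAC libraries were below all KO sham libraries. In KO mice Ryr2 fell by 0.49 with TAC (log2, SE 0.08, edgeR adjusted p = 0.000192). In Ctrl mice the value was -0.23 (SE 0.08, edgeR adjusted p = 0.0634), and with the DESeq2 Wald test its adjusted p was 0.0464. The call was also gained in edgeR in 5 of the 16 fits without 1 library (Ctrl sham 4, Ctrl TAC 1, Ctrl TAC 2, KO TAC 2 or KO TAC 3). The difference between the 2 responses was -0.26 and did not pass (edgeR adjusted p = 0.43).

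Trdn, whose product triadin joins calsequestrin to the channel, measured 362, 293, 307 and 311 CPM in sham and 252, 234, 289 and 268 CPM in TAC hearts of Ctrl mice. Sham hearts of KO mice held 312, 309, 284 and 307 CPM, and their TAC hearts 267, 252, 251 and 272 CPM. The sham and TAC ranges did not overlap in either genotype. In edgeR the gene fell by 0.28 with TAC in Ctrl mice (log2, SE 0.07, adjusted p = 0.00608) and by 0.22 in KO mice (SE 0.07, adjusted p = 0.0193). The call in KO mice was lost without KO sham 1, KO TAC 2 or KO TAC 3 (edgeR adjusted p = 0.0534, 0.0533 and 0.0566) and with a term for the animal numbers that start with 33, all of them sham animals (0.0611).

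Jph2 encodes junctophilin-2, the tether between the surface membrane and the store, and ranged from 473 to 539 CPM in Ctrl sham, 484 to 584 in KO sham, 472 to 583 in Ctrl TAC and 445 to 492 in KO TAC. These ranges overlapped in every comparison. Its log2 fold change with TAC was 0.06 in Ctrl mice (95% interval -0.08 to 0.21) and -0.16 in KO mice (95% interval -0.30 to -0.01, edgeR adjusted p = 0.0899), and without KO sham 4 the latter passed (edgeR adjusted p = 0.0457).

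The luminal proteins moved apart. Casq2, the cardiac calsequestrin and the main calcium buffer of the store, measured 786, 715, 786 and 728 CPM (Ctrl) and 802, 792, 803 and 722 CPM (KO) after sham surgery, and 1034, 1005, 1005 and 1058 CPM (Ctrl) and 931, 946, 1087 and 1100 CPM (KO) after TAC. All TAC libraries were above all sham libraries, and the ranges of Ctrl TAC and KO TAC overlapped. Casq2 rose by 0.44 with TAC in Ctrl mice (log2, SE 0.06, edgeR adjusted p = 4.64e-05) and by 0.38 in KO mice (SE 0.06, edgeR adjusted p = 8.03e-05). After TAC it differed by -0.01 between KO and Ctrl mice, with a 95% interval of -0.14 to 0.11.

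Hrc, the histidine-rich calcium-binding protein, which binds triadin and the pump, had the largest fall of the 9 members in KO mice. Its values were 1024, 877, 934 and 946 CPM (Ctrl) and 962, 923, 878 and 955 CPM (KO) after sham surgery, and 677, 726, 694 and 596 CPM (Ctrl) and 505, 473, 495 and 547 CPM (KO) after TAC. The sham groups overlapped each other and stood above both TAC groups, and KO TAC stood below Ctrl TAC without overlap. The fall with TAC was -0.49 in Ctrl mice (log2, SE 0.06, edgeR adjusted p = 3.41e-05) and -0.88 in KO mice (SE 0.06, edgeR adjusted p = 2.21e-08). Hrc was lower in KO than in Ctrl mice after TAC by 0.42 (log2 fold change -0.42, SE 0.06, edgeR adjusted p = 0.00753).

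Casq1, the calsequestrin of fast skeletal muscle, was a minor transcript with 216 to 1030 counts per library. It measured 6.77, 5.64, 4.19 and 4.22 CPM (Ctrl) and 7.33, 4.93, 6.58 and 5.18 CPM (KO) after sham surgery, and 7.29, 10.9, 15.7 and 9.73 CPM (Ctrl) and 7.35, 5.65, 5.61 and 5.94 CPM (KO) after TAC. All Ctrl TAC libraries were above all Ctrl sham libraries, while KO TAC overlapped KO sham and, through 1 library, Ctrl TAC. Casq1 rose by 1.06 with TAC in Ctrl mice (log2, SE 0.21, edgeR adjusted p = 0.00216), which was lost with a term for the animal numbers that start with 25 (0.79, adjusted p = 0.0811). Its value in KO mice was 0.03 (95% interval -0.42 to 0.48). The interaction of -1.03 did not pass over all genes (edgeR adjusted p = 0.241). Of the fast skeletal markers, 2 of 7 tested were called higher with TAC in Ctrl mice (Tnnt3 and Myl1) and 1 of 7 in KO mice (Myl1). Their summed level, mostly Myl1, was 17.6 to 30.6 CPM in Ctrl sham, 19.2 to 26.7 in KO sham, 37.4 to 64.0 in Ctrl TAC and 36.5 to 62.6 in KO TAC, and Myh1 and Myh2 were each at 0 in 8 libraries. The median log2 fold change of the 7 markers tested was 0.25 with TAC in Ctrl mice and -0.34 in KO mice, unlike the sum. For KO against Ctrl mice after TAC it was -0.44, with 0 of 7 called. The part of skeletal muscle cells in the Casq1 level was not tested.

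Slc8a1, the sodium-calcium exchanger NCX1 of the cell surface, ranged from 291 to 349 CPM in Ctrl sham, 307 to 318 in KO sham, 273 to 371 in Ctrl TAC and 258 to 410 in KO TAC. The TAC groups were more spread than the sham groups and overlapped them. The log2 fold change with TAC was -0.09 in Ctrl mice (95% interval -0.34 to 0.17) and 0.06 in KO mice (95% interval -0.19 to 0.32), and none of its comparisons was called.

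**Figure D2:**
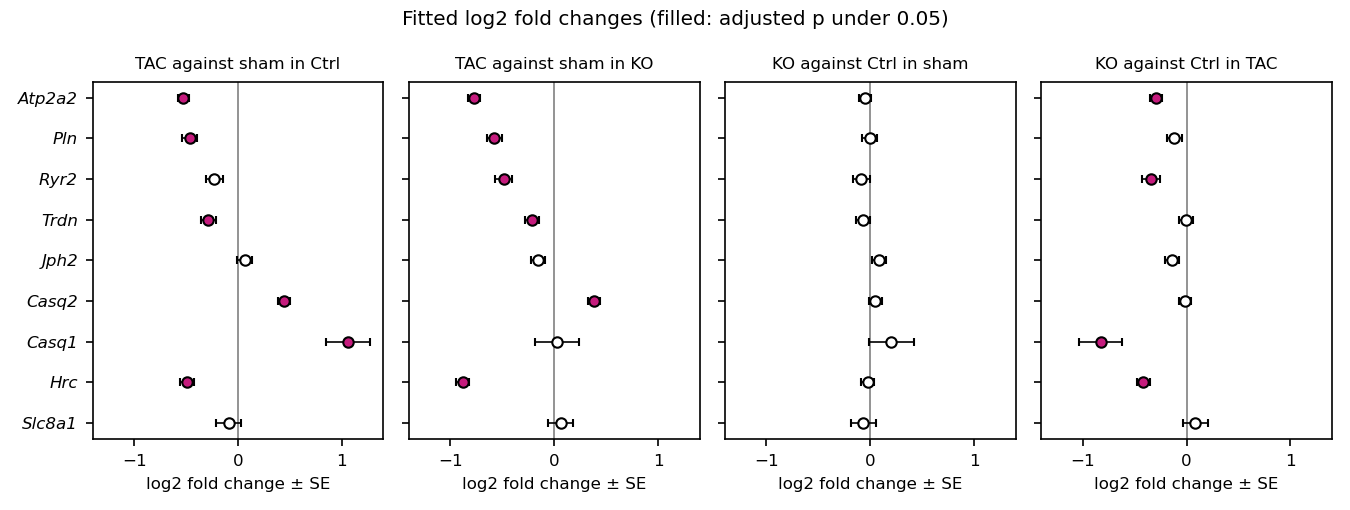
Fitted log2 fold change (horizontal axis, bars ± SE) of the 9 tested members in 4 comparisons, with filled points for an adjusted p under 0.05. Filled points number 6, 6, 0 and 4 from left to right, and the 4 in KO against Ctrl after TAC all lie below 0.

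Loss of Cardinal was then compared within each operation. In sham hearts 0 of 9 members were called by edgeR, 0 had an unadjusted p under 0.05 (2.62% of all genes, 479, had one), 0 had libraries that did not overlap (1.78% of all genes), and 0% of all genes were called. DESeq2 also called 0 members there. Cardinal itself was not called in sham hearts by edgeR (log2 fold change -2.92, SE 0.82, adjusted p = 0.9998). Its Ctrl sham and KO sham libraries nevertheless did not overlap. The common fit includes KO TAC 4, where Cardinal stood at 4.55 CPM, and the part of that library in the SE was not tested. The members had smaller SE in sham hearts, from 0.06 (Atp2a2) to 0.21 (Casq1), so the missed call of Cardinal does not gauge their test. A lack of calls in sham hearts still does not exclude differences. In TAC hearts Cardinal was not called either (-1.57, edgeR adjusted p = 0.263). After TAC 4 of 9 members were called, all lower in KO mice (Atp2a2, Ryr2, Casq1 and Hrc), against 2.68% of all genes (1.36% higher, 1.32% lower) and 5.16% of the abundant ones. For 2 of them, Atp2a2 and Hrc, the libraries did not overlap, as for 10.5% of all genes. Ryr2 was lower by 0.34 (log2 fold change -0.34, SE 0.08, edgeR adjusted p = 0.0374) and Casq1 by 0.83 (log2 fold change -0.83, SE 0.21, edgeR adjusted p = 0.0474), both with overlapping libraries. For the interaction 0 of 9 members were called in edgeR, where 0.0109% of all genes were called. An unadjusted p under 0.05 was reached by 5 members and by 11.1% of all genes. DESeq2 called 1 member there, Hrc, at an adjusted p of 0.0157, among 133 of 13784 genes that it called. The comparisons share libraries, so the 4 lower members are not independent of the TAC responses above.

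The 4 calls between genotypes changed with the libraries and the model used, Hrc least. Of the Ctrl TAC animals 3 (replicates 2, 3 and 4) and of the KO TAC animals 1 (replicate 4) had numbers starting with 25, whose meaning the labels do not give. All animals of this series had TAC, so it is also confounded in part with the operation in the comparisons of TAC with sham. Within that series Atp2a2 measured 11216, 10415 and 9857 CPM in Ctrl and 8536 CPM in KO, and outside it 10398 CPM in Ctrl and 8969, 8089 and 8558 CPM in KO. Hrc measured 726, 694 and 596 against 547 CPM within the series, and 677 against 505, 473 and 495 CPM outside it. Casq1 outside it measured 7.29 CPM in Ctrl and 7.35, 5.65 and 5.61 CPM in KO. Each side thus held 1 library of one genotype, and the only KO library within the series was KO TAC 4, which held Cardinal at the level of Ctrl libraries. With the series as a model term 0 of the 4 calls remained, and 12 of 18275 genes were called in all. The log2 fold change in that fit was -0.38 for Hrc (edgeR adjusted p = 0.064), -0.29 for Atp2a2 (0.101), -0.37 for Ryr2 (0.113) and -0.63 for Casq1 (0.291). Among the 16 fits that left out 1 library, the Hrc call held in each, and the Atp2a2 call was lost in 1, without Ctrl TAC 2 (edgeR adjusted p = 0.0541). The Ryr2 call was lost in 7, namely without KO sham 1 or 2, Ctrl TAC 1, 2 or 3, or KO TAC 1 or 2 (edgeR adjusted p = 0.052 to 0.127), with a log2 fold change of -0.41 to -0.27 over all 16 fits. The Casq1 call was lost in 13 fits, among them the fit without KO TAC 4 (edgeR adjusted p = 0.0907), and held without Ctrl sham 1, Ctrl TAC 1 or Ctrl TAC 4.

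Mean summed marker levels of ventricular cardiomyocytes were lower and those of fibroblasts higher after TAC, while 0 of 5 endothelial markers were called in either genotype. The summed ventricular cardiomyocyte markers were 55237 ± 3166 CPM in Ctrl sham, 55202 ± 2658 in KO sham, 50536 ± 1980 in Ctrl TAC and 43291 ± 639 in KO TAC, with 1 of 8 markers (Myh6) called lower in KO than in Ctrl mice after TAC. Fibroblast markers summed to 486 to 549 CPM in Ctrl sham, 494 to 527 in KO sham, 692 to 991 in Ctrl TAC and 997 to 1174 in KO TAC. Relative to the cardiomyocyte marker sum, Atp2a2 still differed with TAC by -0.40 in Ctrl and -0.42 in KO mice, Pln by -0.34 and -0.23, Hrc by -0.36 and -0.53, and Casq2 by 0.57 and 0.73 (log2), with no overlap between sham and TAC libraries. Ryr2 differed by -0.10 and -0.14 and Trdn by -0.16 and 0.13, with overlapping libraries. Casq1 differed by 1.17 and 0.39 without overlap, Slc8a1 by 0.03 with overlap in Ctrl and 0.39 without it in KO mice, and Jph2 by 0.19 in each with overlap. On that scale the difference between KO and Ctrl mice after TAC was -0.07 for Atp2a2, -0.12 for Ryr2, -0.19 for Hrc and -0.56 for Casq1, and the libraries of the 2 groups overlapped for each. This scale was chosen after seeing the data and carries no test. With TAC 4 of the 8 markers were called lower and 2 higher in Ctrl mice, and 5 lower and 1 higher in KO mice. The sum leans on Myh6, which averaged 24607 CPM in Ctrl sham, 23722 in KO sham, 20046 in Ctrl TAC and 15336 in KO TAC.

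Ratios between members were compared within libraries. The CPM of Pln was 34.7% ± 1.91 of that of Atp2a2 in Ctrl sham, 35.8% ± 1.30 in KO sham, 36.4% ± 5.21 in Ctrl TAC and 41.0% ± 1.99 in KO TAC. The CPM of Slc8a1 was 2.17% ± 0.164, 2.14% ± 0.0448, 2.94% ± 0.426 and 3.82% ± 0.805 of that of Atp2a2 in the same order. All TAC libraries exceeded all sham libraries for Slc8a1 to Atp2a2 in both genotypes, by 0.43 log2 units in Ctrl and 0.81 in KO mice. For these 2 comparisons, and for Pln to Atp2a2 in KO mice (0.20), the exact two-sided permutation p was 0.0286, the smallest that 70 relabellings allow, and the value adjusted over the 12 ratio comparisons was 0.114. Casq1 to Casq2 was 0.695% ± 0.159 in Ctrl sham and 1.07% ± 0.362 in Ctrl TAC, and 0.773% ± 0.126 in KO sham and 0.614% ± 0.124 in KO TAC. These differences of 0.59 and -0.34 log2 units ran in opposite directions, both with overlapping libraries, and KO and Ctrl mice differed by -0.76 after TAC (exact permutation p = 0.0571, adjusted 0.137). No ratio passed the adjustment, which the smallest p of 70 relabellings can meet only when most of the 12 comparisons reach it.

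**Figure D3:**
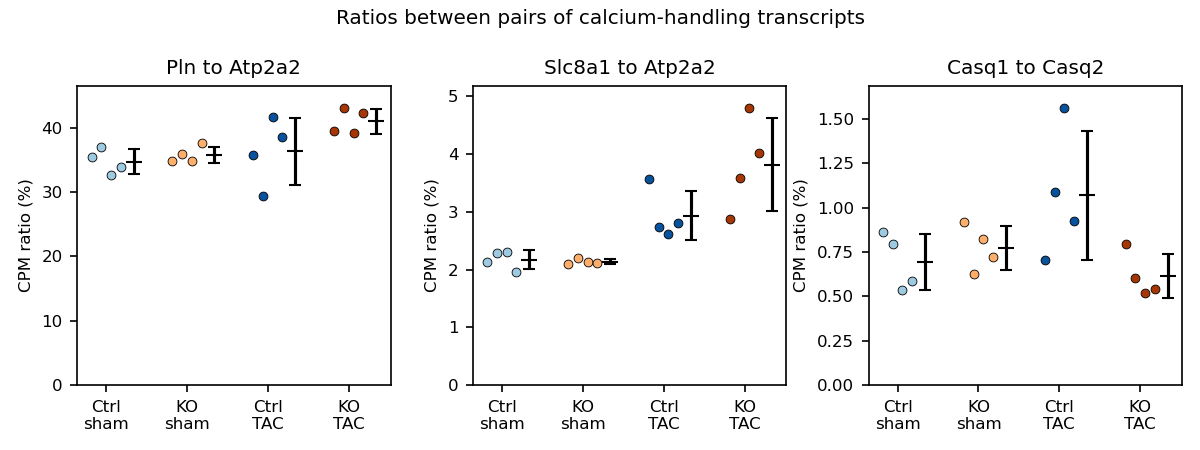
CPM of the first gene as a percentage of the CPM of the second (vertical axes, from 0) in each library, with group mean and SD. Slc8a1 to Atp2a2 lies near 2% in the 8 sham libraries and higher in the 8 TAC libraries, up to a mean of 3.82% in KO TAC.

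Over the 16 libraries, the 3 genes whose log2 CPM followed Atp2a2 most closely were Dcaf11, Sdha and Slc2a4. They were sought among 10208 genes averaging at least 2 in log2 CPM, without Gm or Rik symbols. Likeness was measured as the root mean square difference between profiles scaled to unit SD, which was 0.143, 0.143 and 0.147. Sdha, a subunit of respiratory complex II, averaged 1494 CPM in Ctrl sham, 1098 in Ctrl TAC and 901 in KO TAC. Slc2a4, the insulin-responsive glucose transporter GLUT4, averaged 344, 258 and 220 CPM. Of the members Hrc was the most alike, at rank 5 (0.151), followed by Pln at 435 and Ryr2 at 713, and Casq2 was at 9471. The points share the contrast between operations, so likeness describes these libraries only.

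The wider calcium machinery was read from 6 lists with 84 tested genes. With TAC 27 of 84 were called in Ctrl mice (15 higher, 12 lower) and 42 of 84 in KO mice (22 higher, 20 lower), with list medians of 0.01 in each. These shares, 32.1% and 50%, were near those of the abundant genes, 33.6% in Ctrl and 49.4% in KO mice (20.0% and 34.3% of all genes), and the counts of the single lists below stand against the same backgrounds. Among regulators of the pump, 3 of 10 were called in Ctrl and 5 of 10 in KO mice. Strit1, which encodes the pump activator DWORF, fell by 0.86 in Ctrl and by 1.30 in KO mice (log2, edgeR adjusted p = 0.00154 and 1.66e-05). Sri, the sorcin gene, rose by 0.26 and 0.23, Srl (sarcalumenin) rose by 0.30 in Ctrl mice, and S100a1 rose by 0.30 in KO mice.

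Of the release channels and dyad proteins, 7 of 20 were called in Ctrl mice (5 higher, 2 lower) and 10 of 20 in KO mice (6 higher, 4 lower). The membrane-shaping genes Bin1 and Cav3 rose by 0.58 and 0.46 in Ctrl and by 0.69 and 0.36 in KO mice. Tmem38a, a counter-ion channel of the store, fell by 0.22 and 0.29, and Calm2, a calmodulin gene, rose by 0.40 in KO mice. Of the luminal proteins of the general endoplasmic reticulum, 3 of 8 were called in Ctrl mice (1 higher, 2 lower) and 7 of 8 in KO mice (5 higher, 2 lower). Rcn3 rose by 0.85 and 1.00, Canx (calnexin) fell by 0.23 and 0.37, and Calu and Sdf4 rose by 0.30 and 0.17 in KO mice.

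Of the genes for sarcolemmal calcium and sodium transport, 7 of 17 were called in Ctrl mice (3 higher, 4 lower) and 9 of 17 in KO mice (4 higher, 5 lower). Cacna1c, the pore of the L-type calcium channel, fell by 0.37 in Ctrl and by 0.35 in KO mice, and its subunit Cacnb2 by 0.33 and 0.39. The exchanger Slc8a2, at 1.23 CPM in Ctrl sham, rose by 1.01 and 0.60. Mitochondrial calcium transport had 2 of 9 genes called in Ctrl mice (both higher) and 4 of 9 in KO mice (3 higher, 1 lower). Micu2 rose by 0.20 and 0.38, Mcub rose by 0.78 in KO mice, and Letm1 fell by 0.16 in KO mice.

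Of the kinases, anchors, phosphodiesterases and phosphatases, 5 of 20 were called in Ctrl mice (2 higher, 3 lower) and 7 of 20 in KO mice (2 higher, 5 lower). Prkar1a, a regulatory subunit of protein kinase A, rose by 0.50 in Ctrl and by 0.91 in KO mice. Akap7, an anchor of that kinase, fell by 0.38 and 0.37, and Camk2a and Pde3a fell by 0.75 and 0.44 in KO mice. Between KO and Ctrl mice after TAC, 5 of the 84 genes were called by edgeR (5.95%), a share near the 5.16% of abundant genes (2.68% of all genes). Prkar1a (0.53, adjusted p = 0.0141), Pde4b (0.48, adjusted p = 0.0229), Calm2 (0.24, adjusted p = 0.021) and Calu (0.19, adjusted p = 0.0387) were higher.

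**Figure D4:**
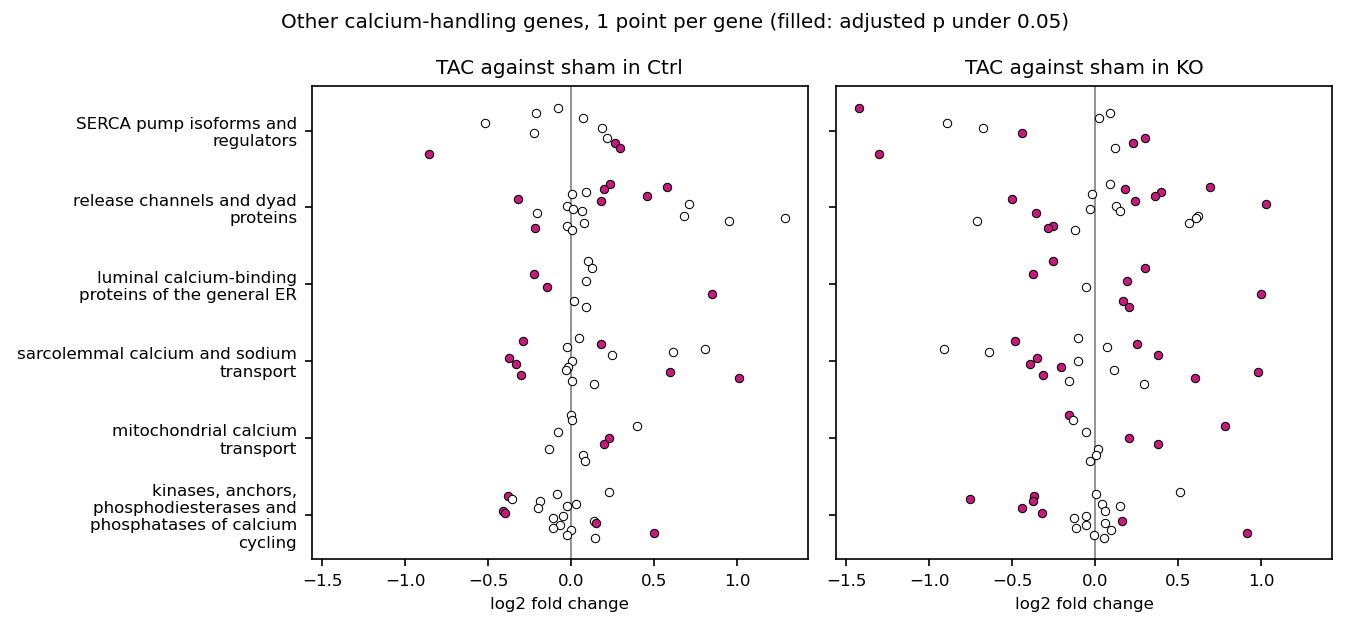
Log2 fold change with TAC (horizontal axes) of 84 calcium-handling genes outside the 10 members, 1 point per gene, grouped by list, with filled points for an adjusted p under 0.05. Called genes lie on both sides of 0 in most lists, with 27 filled points in Ctrl and 42 in KO mice.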

How the data were processed

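Poly(A) RNA of 16 mouse heart apices was measured. The authors deposited 1 table of raw counts per Ensembl gene, with no normalization. The submitters' processing notes name cutadapt 2.3, FastQC, HISAT2 2.1.0, edgeR 3.26.1 and GRCm38, while the counting program, annotation and use of strand are not given in the sources used here. Read pairs without molecular identifiers are not independent molecules, so count limits cover counting error only. Symbols and positions came from GENCODE M21, and 55141 of 55487 identifiers matched. No row without a gene entered the library sizes.

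Groups came from the titles and the columns were matched by animal number. Genes were filtered with filterByExpr and scaled by TMM in edgeR 4.0.16 (R 4.3.3), which kept 18275. The quasi-likelihood model (glmQLFit, robust) had 1 mean for each of 4 groups, fitted to all 16 libraries, and 5 contrasts were tested and adjusted over all genes by Benjamini-Hochberg, with a call at an adjusted p under 0.05. The SE of a log2 fold change was its size divided by the square root of F. The 95% intervals are unadjusted. log2 CPM used a prior count of 2. Ratios of members were compared by exact two-sided permutation. Replicates are different animals per the labels. No 2 libraries of a group agreed within sampling noise (chi-square per degree of freedom of at least 9.96). The steps were tested on simulated data.

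All 10 members are named. In each pathway list up to 4 genes were named, those called with the smallest adjusted p for TAC in either genotype, together with genes called in KO against Ctrl after TAC. For Atp2a2 the 3 most alike genes were named (average log2 CPM of at least 2), and the same rule gave no genes for Sln, which was below the filter. The members, lists and tests were chosen with earlier results of these data known. Of 87 pathway symbols 85 matched and 84 were tested. The 7 marker lists covered ventricular and atrial cardiomyocytes, fast skeletal muscle, fibroblasts, endothelial cells, macrophages and smooth muscle cells. After TAC, 0 of 5 endothelial markers were called in either genotype, 3 of 5 macrophage markers were higher in Ctrl and 5 of 5 in KO mice, 1 of 4 smooth muscle markers in Ctrl and 2 of 4 in KO mice, and 3 of 6 fibroblast markers in Ctrl and 6 of 6 in KO mice. Of 5 atrial markers tested, 3 were called in each genotype (2 higher, 1 lower).

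Alternatives were RLE size factors, the DESeq2 1.42.0 Wald test, 2 other filters, omission of mitochondrially encoded genes, a threshold of 0.01, animal-number terms, fits to 8 libraries, and omission of libraries, and for ratios raw counts plus 0.5. Values of some single genes of the pathway lists are not reported here.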

Additional observations from a re-analysis of the deposited data

Results flagged for a closer look

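Of 48 sets of 4 libraries examined, for 9 member levels and 3 ratios in 4 groups, 1 held a library far from the other 3 by Dixon's criterion, and chance alone gives about 1 in 20. Casq2 in KO sham 4 measured 722 CPM, where the other KO sham libraries measured 792 to 803 CPM. The value lies within the Ctrl sham range of 715 to 786 CPM. Without KO sham 4 the log2 fold change of Casq2 with TAC in KO mice was 0.34, and it was still called.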

How the results depend on the processing

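In the 4 comparisons between 2 groups and the interaction, the calls for TAC in Ctrl and KO mice held within 1 member of 6 under the alternatives run, with 6 to 7 and 5 to 7 members called when 1 library was left out, and 0 members were called in sham mice throughout. After TAC 4 members differed between genotypes, 1 to 4 when 1 library was left out, 2 without a filter on low counts (285 of 36333 genes called in all), 1 at a threshold of 0.01 (19 of 18275), 0 with a model term for animal numbers of the 25 series (12 of 18275), 1 in the fit to 8 libraries (154 of 17568) and 1 without both Ctrl TAC 2 and KO TAC 4 (109 of 18349). The single call at 0.01, in 8 libraries and without both was Hrc. It was 2 without KO sham 1, KO sham 2, Ctrl TAC 3, KO TAC 1 or KO TAC 2 and 1 without Ctrl TAC 2, and for the interaction 1 with DESeq2 against 0. With fewer samples or other genes tested the adjusted p moves by construction, and no other cause was tested. Without these changes 489 of 18275 genes were called.

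Log2 values, most of them near 0, changed sign under some settings. With the term for the 25 series these were Slc8a1 for TAC in Ctrl mice (0.0083), Casq1 for TAC in KO mice (-0.047), and Casq2 (0.020) and Trdn (0.035) for KO against Ctrl after TAC, and with a term for numbers starting with 33 they were Casq1 (-0.0079) and Slc8a1 (-0.018) for TAC in KO mice and Pln (0.038) in sham mice. Trdn for KO against Ctrl after TAC was 0.0087 without a filter, and its interaction was -0.0022 without both libraries. Relative to the cardiomyocyte marker sum, the values that changed sign were Slc8a1 for TAC in Ctrl mice (0.033), Trdn (0.13) and Jph2 (0.19) for TAC in KO mice, and Pln (0.11), Casq2 (0.20), Trdn (0.22) and Jph2 (0.087) for KO against Ctrl after TAC. When 1 library was left out, the log2 values of KO against Ctrl in sham mice ran from -0.042 to 0.049 for Pln and -0.059 to 0.016 for Hrc. After TAC they ran from -0.051 to 0.052 for Trdn, -0.054 to 0.026 for Casq2 and -0.049 to 0.19 for Slc8a1, for TAC in KO mice from -0.067 to 0.14 for Casq1 and -0.068 to 0.16 for Slc8a1, and for the Trdn interaction from -0.0022 to 0.12. The ratio Pln to Atp2a2 for TAC in Ctrl mice ran from -0.014 to 0.15, and Slc8a1 to Atp2a2 in sham mice from -0.067 to 0.011. Neither passed the adjustment in any of these fits. No paired analysis was possible because the replicate numbers follow the order of the samples and the labels pair no animals. Depth limits Sln alone, where 12 of 16 libraries are at 0.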

Other observations

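Trdn and Casq2 differed by 0.00 and -0.01 (log2) between KO and Ctrl mice after TAC, with 95% intervals of -0.15 to 0.14 and -0.14 to 0.11, while Hrc differed by -0.42 with an interval of -0.55 to -0.28. The interval for Hrc did not overlap those of Trdn and Casq2, but these genes were picked with the values known, so the lack of overlap carries no weight. The intervals come from the model without the term for the 25 series, with which the Hrc call was lost (edgeR adjusted p = 0.064). Differences between genes were not tested.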
